A study of Homo sapiens with 52 samples.

Results

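The transcripts described here encode the 3 D-type cyclins (CCND1, CCND2 and CCND3), the kinases CDK4 and CDK6 that these cyclins activate, and the transcription factor MYC. They are 6 of the 226882 transcript rows of the deposited count table, 1 row per gene, found by their transcript identifiers. CCND1 was selected on its measured values, namely its large fall in translation complex profiling (TCP-seq) of MCTS1 knockout (KO) cells and its distance from the eIF2D KO in the same assay. The other members were chosen by name as its relatives and partners. All TCP-seq values of CCND1 in the KO comparisons are therefore given as a description, with no test. The stated reason for picking CCND1 names no RNA-seq, Ribo-seq or tag-selected values. Earlier results of these data were known at the time, however, and the MCTS1 KO labels name the same clones in each assay.

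D-type cyclins are short-lived proteins made in the first gap phase of the cell cycle in response to growth signals. Each binds CDK4 or CDK6, and the active kinase phosphorylates the retinoblastoma protein, which frees E2F factors to switch on genes for DNA replication. MYC is a transcription factor that drives growth, and CCND2 and CDK4 are among its known targets. HEK293T is a human embryonic kidney line made with adenovirus DNA and given a viral T antigen, which binds and inactivates the retinoblastoma protein. DENR and MCTS1 act as a dimer that removes tRNA from small (40S) ribosomal subunits after termination and helps ribosomes to reinitiate, and eIF2D is a single protein with a similar domain order.

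Every library came from HEK293T cells. RNA-seq and Ribo-seq were made from wild type cells, from MCTS1 KO clones #1 and #2, from cells given control siRNA, and from cells given DENR siRNA #1 or #2, with 2 libraries in each group. TCP-seq was made from wild type cells (4 libraries), eIF2D KO clones #1 and #2 and MCTS1 KO clones #1 and #2 (2 libraries each). Sel-TCP-seq captured 40S complexes that carried V5-tagged eIF2D, MCTS1 or DENR, with 2 libraries for each tagged protein and no untagged selection among the libraries analysed. Each KO is represented by 2 clones and each knockdown by 2 siRNAs. Whether 2 libraries of a group came from separate cultures is not given in the labels, so p-values measure the spread between libraries, which may be technical. TCP-seq of the eIF2D KO was set against wild type libraries 1 and 2, and that of the MCTS1 KO against wild type libraries 3 and 4, following runs of library numbers in the labels. The labels do not state which wild type libraries belong to which KO, and the 2 wild type pairs differed from each other. CCND1 was 1.92-fold higher in wild type libraries 3 and 4 than in 1 and 2, a ratio given with no test. Of all transcripts, 13.8% were called in the MCTS1 KO against libraries 3 and 4, and 6.73% against 1 and 2. In the eIF2D KO 1.63% were called against libraries 1 and 2, and 10.6% against 3 and 4. The cause of this was not tested.

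A library held 76967099 to 301214608 counts in RNA-seq, 16370112 to 193940882 in Ribo-seq, 1609303 to 5053637 in TCP-seq and 356019 to 2582917 in Sel-TCP-seq. Levels are CPM, the usual scaling of a count to its library's total, adjusted by TMM factors within each assay. They are not per transcript length, so levels of different genes are not compared. CDK4 shared its reads with 5 other transcript rows and MYC with 2, judged by a correlation of replicate deviations above 0.95. The other 4 shared them with none by that measure. No table used here pairs the remaining transcript rows with gene names, so the levels of MCTS1, DENR and EIF2D in the libraries labelled for them were not checked here. Other genes of the pathway and markers of the cell line were not measured here for the same reason. Log2 changes are the mean of both clones or siRNAs minus the control, with the standard error (SE). A change was called at an adjusted p under 0.05 (edgeR's quasi-likelihood test, Benjamini-Hochberg over all transcripts tested).

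In MCTS1 KO cells the 6 transcripts did not move as a set. CCND1 mRNA was 3.87-fold lower and CCND2 mRNA 1.62-fold higher than in wild type, CDK6 mRNA was lower in clone #1, and CCND3 and MYC mRNA did not pass the test over both clones. Of the 6 members, 4 were called in RNA-seq, 1 higher and 3 lower, where 24.9% of 131951 transcripts were called (11.4% higher, 13.5% lower). Their median log2 change was -0.11, against -0.01 over all transcripts tested. In clone #1 alone 5 of 6 were called against 42.2% of all transcripts, and in clone #2 alone 2 of 6 against 14.9%. In Ribo-seq, which counts ribosome-protected fragments, 2 of 6 were called, CCND2 higher and CCND1 lower, against 6.11% of 115412 transcripts (2.68% higher, 3.43% lower). There 4 of 6 were called in clone #1 (16.7% of all transcripts) and 2 of 6 in clone #2 (3.62%). Translational efficiency (TE), the Ribo-seq change beyond the RNA-seq change, was called for 0 of 6, against 0.862% of 108757 transcripts. At an unadjusted p under 0.05 the TE of CCND1, CCND3 and MYC would pass, and DESeq2 called none. By clone, 1 of 6 was called in clone #1 (5.47% of transcripts) and 0 in clone #2 (0.107%).

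After DENR siRNA, CCND1 was the one member called lower in both mRNA and ribosome footprints. In RNA-seq 3 of 6 members were called, all lower (CCND1, CDK6 and CCND2), against 23.1% of 131311 transcripts in either direction and 12.7% lower. With siRNA #1 alone 3 of 6 were called (26% of transcripts) and with siRNA #2 alone 1 of 6 (19.2%). In Ribo-seq 1 of 6 was called, CCND1, against 10.4% of 108890 transcripts in either direction and 6.05% lower. With siRNA #1 alone 1 of 6 was called (10.6%), and with siRNA #2 alone 3 of 6 (9.21%). TE was called for 0 of 6 (0.377% of 102515 transcripts), and for 0 of 6 with siRNA #1 (0.217%) or siRNA #2 (0.586%) alone. At an unadjusted p under 0.05 the TE of CCND2 and CDK6 would pass, and DESeq2 called none.

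In TCP-seq, CDK6 and MYC fell in the MCTS1 KO, beside the fall of CCND1 for which the set was assembled. Of the other 5 members, 2 were called, both lower, against 13.8% of 50991 transcripts in either direction and 6.82% lower. In clone #1 alone 1 of 5 was called (4.91% of transcripts) and in clone #2 alone 3 of 5 (18.9%). In the eIF2D KO 0 of 5 were called (1.63% of transcripts), with MYC called in clone #1 (1 of 5, 2.02%) and none in clone #2 (0 of 5, 3.29%). At an unadjusted p under 0.05 CCND2 and MYC would pass in the eIF2D KO, and DESeq2 called none of those it gave an adjusted p (it gave none for CCND3 and MYC). The MCTS1 KO change minus the eIF2D KO change was called for 1 of 5, CDK6, against 3.48% of transcripts in either direction and 1.54% lower. In Sel-TCP-seq 3 of 6 members had enough counts to be tested, and 0 of these 3 were called between eIF2D-V5 and the mean of MCTS1-V5 and DENR-V5, against 22.1% of 12135 transcripts. MYC would pass there at an unadjusted p under 0.05, and DESeq2 called none.

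**Figure D1:**
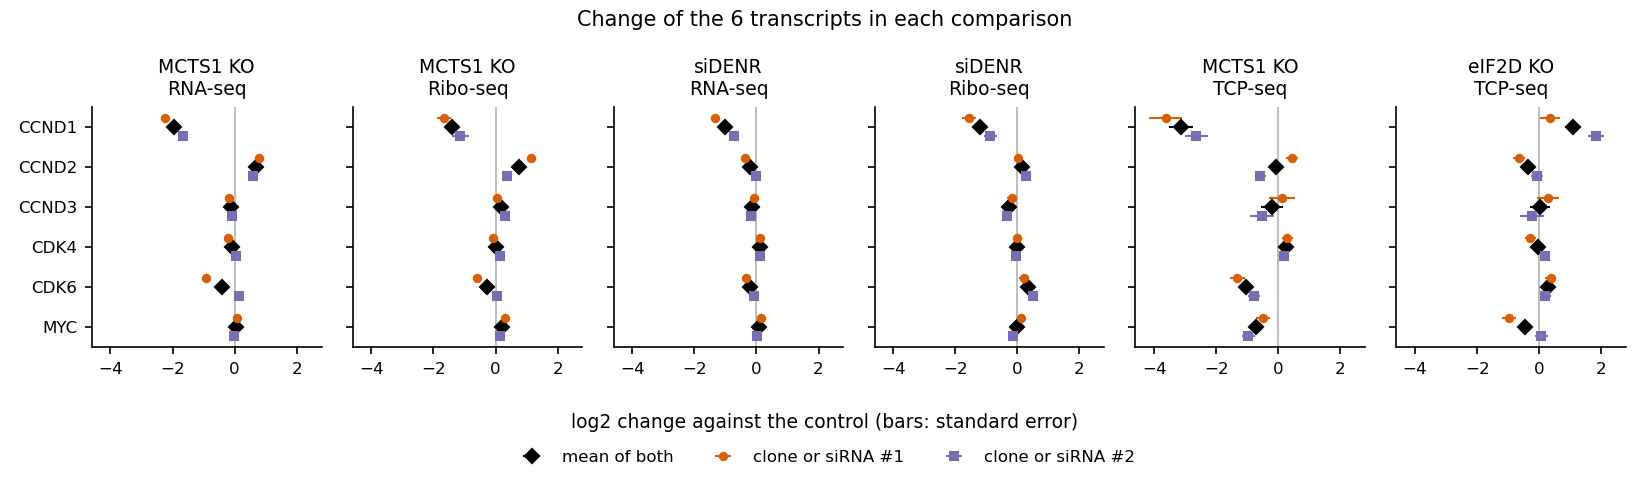
Log2 change (x axis) of each of the 6 transcripts (y axis) in each comparison, with bars of 1 SE; each panel is 1 comparison, and clones or siRNAs are drawn beside their mean. CCND1 lies left of 0 in RNA-seq and Ribo-seq of both the MCTS1 KO (-1.95 and -1.40) and DENR siRNA (-1.03 and -1.22), CDK4 lies close to 0 in RNA-seq and Ribo-seq, and CDK6 separates the MCTS1 KO clones.

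CCND1 encodes cyclin D1. Its transcript (ENST00000227507.2) stood at 5.54 and 4.91 CPM in the wild type RNA-seq libraries. It stood at 1.11 and 1.09 CPM in MCTS1 KO clone #1 and at 1.88 and 1.42 CPM in clone #2. All 4 KO libraries thus lay below both wild type libraries. These are bulk libraries, in which fewer cells with the transcript and less of it per cell cannot be told apart. The log2 change was -1.95 ± 0.10 (SE, adjusted p = 1.9e-26, edgeR), and 0.208% of all tested transcripts fell as far or further. The fall was deeper in clone #1 (-2.23) than in clone #2 (-1.67), a difference of -0.56 ± 0.13 (adjusted p = 0.00033). This rested on 123 to 438 counts of CCND1 in each of the 6 libraries.

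Ribosome footprints on CCND1 fell in the same clones. Ribo-seq levels were 1.68 and 2.26 CPM in wild type, 0.616 and 0.667 CPM in MCTS1 KO clone #1, and 0.892 and 0.954 CPM in clone #2, again with no overlap between KO and wild type. Footprints changed by -1.40 ± 0.20 (adjusted p = 1e-04, edgeR), and 0.513% of transcripts fell as far. Clone #1 (-1.67) and clone #2 (-1.13) did not differ past the threshold (difference -0.54 ± 0.26, adjusted p = 0.17). The footprint fall was smaller than the mRNA fall, but the TE change of 0.52 ± 0.22 did not pass (adjusted p = 0.34). It was 0.53 in clone #1 and 0.52 in clone #2.

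DENR siRNA lowered the same transcript from a higher control level. CCND1 mRNA was at 11.7 and 12.3 CPM with control siRNA, at 4.70 and 4.82 CPM with DENR siRNA #1 and at 7.56 and 6.95 CPM with siRNA #2. This was a log2 change of -1.03 ± 0.08 (adjusted p = 1.3e-15, edgeR), a 2.04-fold fall, and 0.742% of transcripts fell as far. The siRNAs differed: -1.33 for #1 and -0.72 for #2, by -0.61 ± 0.10 (adjusted p = 5e-06). Footprints were at 6.02 and 6.24 CPM with control siRNA, at 2.36 and 1.75 CPM with siRNA #1 and at 3.42 and 3.28 CPM with siRNA #2. They changed by -1.22 ± 0.18 (adjusted p = 1e-06), and 1.21% of transcripts fell as far. TE changed by -0.20 ± 0.18, which did not pass (adjusted p = 0.77).

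The control siRNA libraries stood apart from wild type for CCND1. Its level was 2.30-fold that of wild type in RNA-seq and 3.12-fold in Ribo-seq, and for CCND2 the ratios were 1.93 and 2.56. DENR siRNA #1 brought CCND1 mRNA to 0.911 of the wild type level and siRNA #2 to 1.39 times that level. In the order of RNA-seq means, MCTS1 KO clone #1 (1.10 CPM) and clone #2 (1.65 CPM) came lowest, followed by DENR siRNA #1 (4.76), wild type (5.22), DENR siRNA #2 (7.25) and, highest, control siRNA. DENR siRNA #1 and wild type, neighbours in that order, differed by about the SD of the wild type pair (0.45 CPM). The Ribo-seq order differed in one place, with wild type (1.97 CPM) just below DENR siRNA #1 (2.05), a gap smaller than the SD of either pair. These ratios across treatments were not tested.

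**Figure D2:**
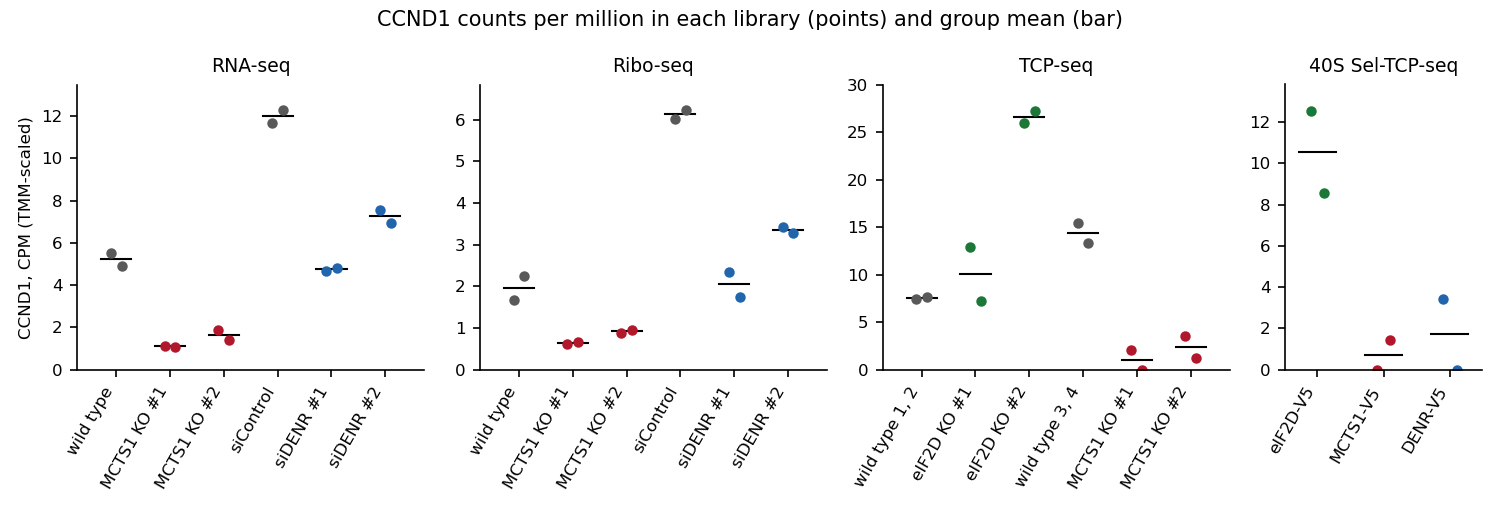
CCND1 level in CPM (y axis, linear, from 0) for each library (points) with the group mean (bar), by group (x axis) and assay (panels). MCTS1 KO libraries are the lowest in RNA-seq, Ribo-seq and TCP-seq, control siRNA is the highest in RNA-seq and Ribo-seq, and eIF2D KO clone #2 (26.0 and 27.2 CPM) is the highest in TCP-seq.

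In TCP-seq, CCND1 was at 15.5 and 13.4 CPM in wild type libraries 3 and 4. MCTS1 KO clone #1 had 2.08 and 0 CPM (4 and 0 counts), where 3 counts would be 1.56 and 1.94 CPM, and clone #2 had 3.56 and 1.26 CPM (12 and 5 counts). These are the values on which CCND1 was picked. The log2 change was -3.13 ± 0.37, and 1 other transcript fell as far. Summed over libraries, clone #1 held 0.078 (95% exact interval 0.021 to 0.211) of the wild type share of counts. Clone #2 held 0.167 (0.092 to 0.289). These intervals cover counting error only. They make no allowance for CCND1 having been picked on these same counts, so they are no test. Against wild type libraries 1 and 2, at 7.40 and 7.62 CPM, the log2 change was -2.18, and with all 4 wild type libraries as control -2.71. The fitted value moved with single libraries of few counts, to -5.52 without library 1 of clone #1, -2.69 without its library 2 and -3.53 without library 1 of clone #2.

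The eIF2D KO clones differed in CCND1. Clone #1 had 12.9 and 7.19 CPM and clone #2 had 26.0 and 27.2 CPM, against 7.40 and 7.62 CPM in wild type libraries 1 and 2. Clone #1 overlapped its wild type pair, and clone #2 lay above all 4 wild type libraries. Their log2 changes were 0.34 in clone #1 and 1.84 in clone #2, with a mean of 1.09 ± 0.27. It was 0.14 against wild type libraries 3 and 4 and 0.57 against all 4. The MCTS1 KO change minus the eIF2D KO change was -4.22 ± 0.46, on which CCND1 was also picked, -3.27 with all 4 wild type libraries as one group, and -6.60 without library 1 of MCTS1 KO clone #1. RNA-seq and Ribo-seq of the eIF2D KO were not analysed here, so whether CCND1 mRNA moved with its TCP-seq level in those clones was not tested.

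In Sel-TCP-seq, CCND1 had too few counts for the test across transcripts. It had 13 and 25 counts with eIF2D-V5 (12.5 and 8.57 CPM), 0 and 1 with MCTS1-V5 (0 and 1.46 CPM) and 2 and 0 with DENR-V5 (3.43 and 0 CPM). The share of counts in eIF2D-V5 was 7.36 times that of MCTS1-V5 and DENR-V5 together (38 against 3 counts, 95% exact interval 2.33 to 37.3). It was 10.3 times that of MCTS1-V5 (1.74 to 418) and 5.87 times that of DENR-V5 (1.52 to 50.2). These intervals cover counting error between libraries of unequal depth and leave out the spread between replicates. With no filter on low counts, edgeR gave a log2 difference of 2.89 ± 0.80 (SE) between eIF2D-V5 and the other tags (adjusted p = 0.014). In that fit 3.29% of 125813 transcripts were called. It rests on 3 counts over the other tags, too few to take that p as a firm test. Over transcripts, replicates differed by 4.32 (eIF2D-V5), 5.44 (MCTS1-V5) and 1.36 (DENR-V5) times counting noise.

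CCND2, which encodes cyclin D2, moved the opposite way to CCND1 in the MCTS1 KO (ENST00000261254.8). Its mRNA was at 8.91 and 9.51 CPM in wild type, at 16.1 and 15.6 CPM in clone #1 and at 14.0 and 14.1 CPM in clone #2, with every KO library above both wild type libraries. The log2 change was 0.70 ± 0.05 (adjusted p = 7.2e-18, edgeR), and 3% of transcripts rose as far. Clone #1 rose further than clone #2, by 0.18 ± 0.05 (adjusted p = 0.0028). Footprints were at 8.39 and 9.25 CPM in wild type, at 19.8 and 19.9 CPM in clone #1 and at 11.9 and 11.2 CPM in clone #2. On average they rose by 0.77 ± 0.09 (adjusted p = 8.6e-06), with 1.15 in clone #1, 0.38 in clone #2 and a difference of 0.77 ± 0.10 (adjusted p = 4.3e-06). Footprints in clone #1 thus rose more than mRNA and in clone #2 less. The TE change was 0.34 ± 0.11 in clone #1 (adjusted p = 0.046) and -0.23 ± 0.12 in clone #2 (adjusted p = 0.69). The clones differed in TE by 0.58 ± 0.10 (adjusted p = 0.00023), a contrast in which CCND2 was the 1 member of 6 called, against 6.2% of transcripts.

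The same clones were set apart by CCND2 in TCP-seq. Its level was 35.8 and 33.4 CPM in wild type libraries 3 and 4, 44.3 and 52.3 CPM in MCTS1 KO clone #1 and 26.1 and 21.1 CPM in clone #2. Clone #1 lay above the wild type pair and was not called (0.45 ± 0.19, adjusted p = 0.15). Clone #2 lay below it and was called lower (-0.57 ± 0.19, adjusted p = 0.018, edgeR). That call was against libraries 3 and 4 only. Clone #2 overlapped wild type libraries 1 and 2 (30.9 and 23.4 CPM), against which it was not tested alone. The clones differed by 1.02 ± 0.18 (adjusted p = 2.5e-05, edgeR). The mean of both clones changed by -0.06 ± 0.16 (adjusted p = 0.84). CCND2 was the 1 member of 5 called between the MCTS1 KO clones in TCP-seq, against 3.48% of transcripts. In the eIF2D KO it was at 18.4 and 17.5 CPM in clone #1 and 24.3 and 29.6 CPM in clone #2, against 30.9 and 23.4 CPM in wild type libraries 1 and 2. The change of -0.36 ± 0.17 did not pass (adjusted p = 0.34). With wild type libraries 3 and 4 as the control the change was -0.67 (adjusted p = 0.0023).

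With DENR siRNA, CCND2 mRNA was at 17.6 and 17.9 CPM in the control, 13.1 and 14.4 CPM with siRNA #1 and 17.5 and 17.5 CPM with siRNA #2. The fall lay in siRNA #1 (-0.36 ± 0.08, adjusted p = 0.00051, edgeR), and siRNA #2 (-0.02) differed from it (adjusted p = 0.0012). The mean change of -0.19 ± 0.07 (adjusted p = 0.038) was not called with library totals in place of TMM factors (0.072), with DESeq2 (0.056), without control library 1 or 2 (0.18 and 0.28) or without library 1 or 2 of siRNA #2 (0.11 and 0.099). Footprints did not fall. They were at 22.1 and 23.0 CPM in the control, 21.7 and 23.9 CPM with siRNA #1 and 28.9 and 26.0 CPM with siRNA #2, where the log2 change was 0.29 ± 0.09 (adjusted p = 0.029). The TE change of 0.34 ± 0.11 did not pass (adjusted p = 0.21). In Sel-TCP-seq CCND2 ran from 9.43 to 16.4 CPM over the 6 libraries, with a log2 difference of -0.00 ± 0.33 between eIF2D-V5 and the other tags (adjusted p = 1).

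CCND3, which encodes cyclin D3 (ENST00000372991.8), did not pass the test as a mean of clones or siRNAs in any of the 9 comparisons that tested it, and 1 clone passed alone. Its mRNA ran from 8.30 to 11.4 CPM and its footprints from 5.13 to 7.92 CPM over 12 libraries each. In RNA-seq it was at 10.4 and 8.95 CPM in wild type, 8.51 and 8.30 CPM in MCTS1 KO clone #1 and 8.96 and 9.44 CPM in clone #2. Clone #1 lay below both wild type libraries and was called lower (-0.19 ± 0.06, adjusted p = 0.011, edgeR), while clone #2 overlapped wild type (-0.07, adjusted p = 0.57). The clones did not differ past the threshold (-0.12 ± 0.06, adjusted p = 0.12). DENR siRNA #2 (9.90 and 10.1 CPM) lay below both control siRNA libraries (11.3 and 11.2 CPM) and was not called (adjusted p = 0.21). Averaged over the MCTS1 KO clones, mRNA changed by -0.13 ± 0.06 (adjusted p = 0.089) and footprints by 0.17 ± 0.11 (adjusted p = 0.42). Without wild type RNA-seq library 2 the mRNA change was -0.24 (adjusted p = 0.017), and without wild type Ribo-seq library 2 the TE change rose from 0.28 ± 0.12 (adjusted p = 0.38) to 0.49 (adjusted p = 0.049). With DENR siRNA mRNA changed by -0.13 ± 0.08 (adjusted p = 0.26; -0.18 and 0.035 without library 1 of siRNA #1) and footprints by -0.26 ± 0.14 (adjusted p = 0.29). TCP-seq gave 2.67 to 9.69 CPM on 9 to 36 counts a library, and log2 changes of 0.03 ± 0.33 in the eIF2D KO and -0.20 ± 0.35 in the MCTS1 KO. At that depth only changes well beyond these SEs, in either direction, could have been called. In Sel-TCP-seq it had 1 to 13 counts a library and was not tested.

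**Figure D3:**
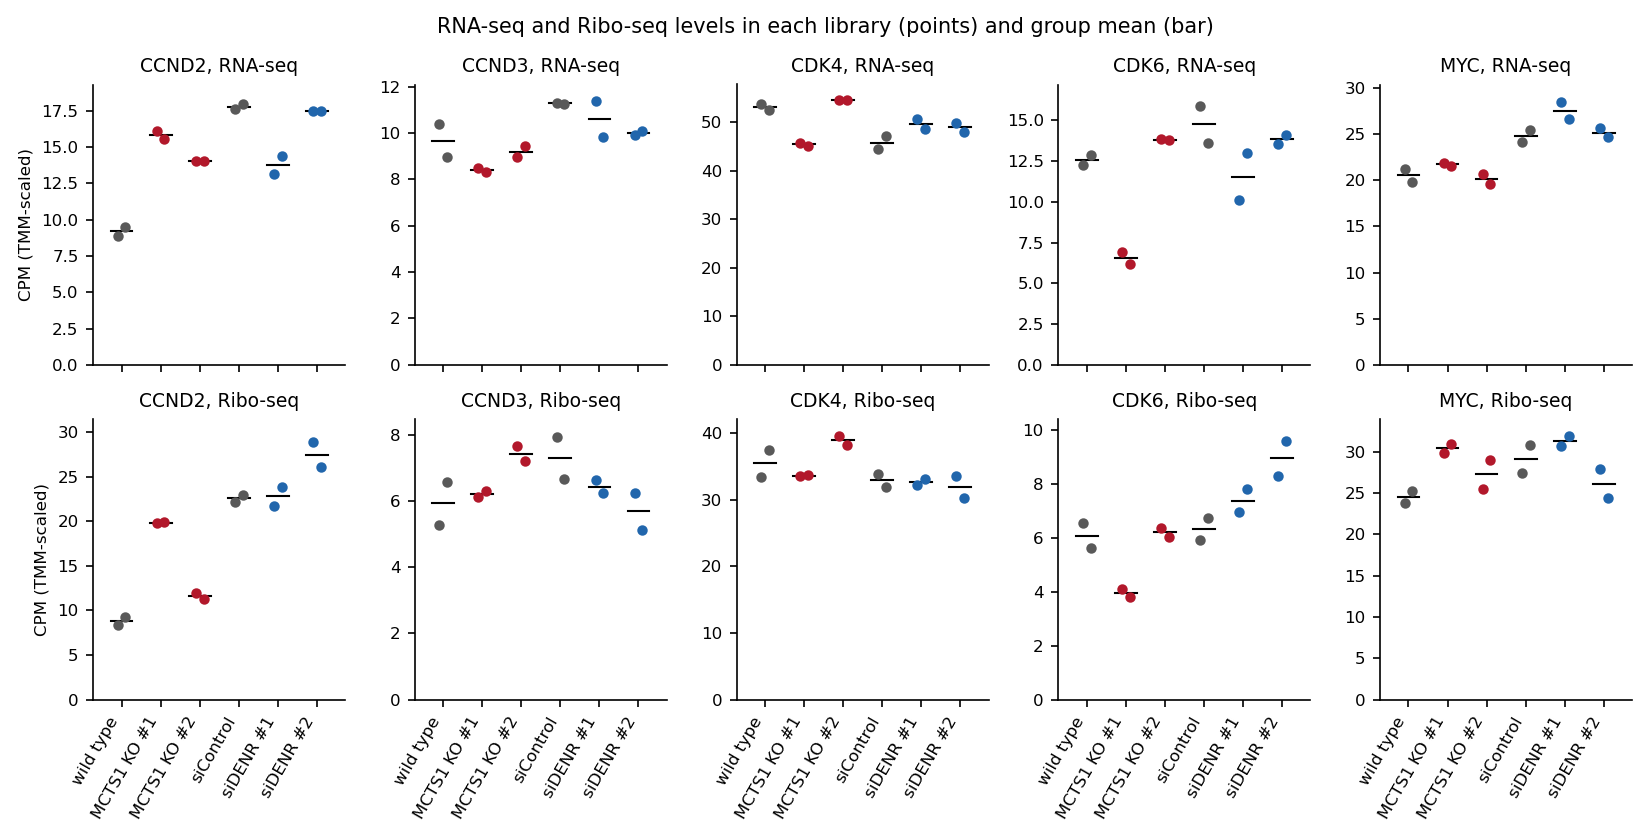
RNA-seq and Ribo-seq level in CPM (y axis, linear, from 0) of CCND2, CCND3, CDK4, CDK6 and MYC in each library (points) with the group mean (bar), by group (x axis). CCND2 is higher in both MCTS1 KO clones than in wild type, CDK6 is lower in MCTS1 KO clone #1 (6.92 and 6.19 CPM in RNA-seq) and not in clone #2 (13.8 and 13.8 CPM), and control siRNA lies above wild type for CCND2.

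CDK4, a catalytic partner of the D-type cyclins (ENST00000257904.11), showed small changes. Its mRNA was at 53.7 and 52.4 CPM in wild type, 45.8 and 45.1 CPM in MCTS1 KO clone #1 and 54.5 and 54.5 CPM in clone #2. Clone #1 lay below wild type by -0.22 ± 0.04 (adjusted p = 3.5e-06, edgeR), and clone #2 did not (0.04, adjusted p = 0.64). The clones differed by -0.25 ± 0.04 (adjusted p = 1e-07). The mean change of -0.09 ± 0.03 (adjusted p = 0.040) was not called with the replicate block (0.059), with DESeq2 (0.097), or without wild type library 1 or 2 (0.26 and 0.10) or library 1 or 2 of clone #2 (0.11 and 0.11). Footprints were at 33.5 and 37.4 CPM in wild type and 33.5 to 39.6 CPM over the KO libraries (0.02 ± 0.07, adjusted p = 0.92). With DENR siRNA mRNA changed by 0.11 ± 0.06 (adjusted p = 0.18; 0.13 and 0.039 without library 2 of siRNA #1) and footprints by -0.02 ± 0.07 (adjusted p = 0.89). TCP-seq levels ran from 28.9 to 46.9 CPM, with changes of 0.24 ± 0.15 in the MCTS1 KO (adjusted p = 0.31) and -0.05 ± 0.15 in the eIF2D KO (adjusted p = 0.94). Sel-TCP-seq levels ran from 26.2 to 53.5 CPM (-0.15 ± 0.35, adjusted p = 0.78).

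CDK4 is a known MYC target, and its promoter is shown because it carries the letters that MYC and its partner MAX bind. Windows from RefSeq's promoter table (GRCh38.p14) were used here for 3 of the 6 members (CCND3, CDK4 and CDK6). Windows on the chromosome of MYC were left out before members were matched, so none was looked at for MYC. The CDK4 window is the 250 bases before the gene's start, at chr12:57752311-57752560 on the minus strand, printed 5′ to 3′ with each E-box (CACGTG, the same on both strands) in capitals.
CDK4: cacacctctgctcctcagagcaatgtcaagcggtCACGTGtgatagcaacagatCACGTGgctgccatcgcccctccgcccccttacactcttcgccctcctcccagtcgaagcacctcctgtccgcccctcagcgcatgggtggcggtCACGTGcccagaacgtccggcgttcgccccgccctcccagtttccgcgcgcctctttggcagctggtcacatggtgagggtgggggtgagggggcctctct
The window holds 3 E-boxes, which begin 216, 196 and 101 bases before the start. Of 35116 windows of this length, 6.34% hold an E-box and 28 (0.0797%) hold 3 or more. The CCND3 and CDK6 windows hold none. It also holds 3 GC boxes (GGGCGG on either strand), which 13.9% of all windows match as often. A match is a description of letters only. Over the same libraries MYC mRNA ran from 19.6 to 28.5 CPM and CDK4 mRNA from 44.5 to 54.5 CPM.

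CDK6, the other kinase of the pair (ENST00000265734.8), differed between MCTS1 KO clones in mRNA but was lower in both in TCP-seq. Its mRNA was at 12.2 and 12.9 CPM in wild type, 6.92 and 6.19 CPM in clone #1 and 13.8 and 13.8 CPM in clone #2. Clone #1 changed by -0.92 (adjusted p = 5.3e-21, edgeR), while clone #2 was at 0.13 (adjusted p = 0.16), and the difference of -1.05 ± 0.06 had an adjusted p of 3.3e-24. The mean change of -0.40 ± 0.05 (adjusted p = 1.1e-08) thus came from clone #1. Footprints followed the same order, with 6.55 and 5.61 CPM in wild type, 4.12 and 3.81 CPM in clone #1 and 6.38 and 6.04 CPM in clone #2. The footprint change was -0.61 in clone #1 (adjusted p = 0.0016), 0.05 in clone #2 (adjusted p = 0.92) and -0.28 ± 0.11 on average (adjusted p = 0.15). TE changed by 0.12 ± 0.12 (adjusted p = 0.78).

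In TCP-seq, CDK6 was at 45.6 and 32.8 CPM in wild type libraries 3 and 4, at 14.1 and 18.7 CPM in MCTS1 KO clone #1 and at 24.1 and 22.9 CPM in clone #2. All 4 KO libraries lay below all 4 wild type libraries, since wild type libraries 1 and 2 had 30.6 and 31.6 CPM. The log2 change was -1.05 ± 0.18 (adjusted p = 2.2e-06, edgeR), with -1.32 in clone #1 (adjusted p = 1.4e-05) and -0.78 in clone #2 (adjusted p = 0.00072). The clones did not differ past the threshold (-0.54 ± 0.24, adjusted p = 0.21). In clone #2, then, the TCP-seq level was lower while mRNA and footprints were not, and the difference between assays was not tested. The fitted value of clone #2 was against wild type libraries 3 and 4 only, and the changes that follow are means of both clones. Wild type library 3 stood high, and without it the change was -0.75 (adjusted p = 0.049). Against wild type libraries 1 and 2 it was -0.69 (adjusted p = 0.0071). The eIF2D KO had 48.5 and 34.4 CPM in clone #1 and 30.8 and 42.0 CPM in clone #2, a change of 0.28 ± 0.16 (adjusted p = 0.46). The MCTS1 KO change minus the eIF2D KO change was -1.33 ± 0.23 (adjusted p = 6.1e-05) and -1.03 without wild type library 3 (adjusted p = 0.043).

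With DENR siRNA, CDK6 mRNA was at 15.9 and 13.6 CPM in the control, 10.1 and 13.0 CPM with siRNA #1 and 13.5 and 14.1 CPM with siRNA #2, so siRNA #2 overlapped the control. The fall with siRNA #1 alone was called (-0.35 ± 0.09, adjusted p = 0.0037). The change of -0.22 ± 0.08 (adjusted p = 0.042, edgeR) was not called with library totals (0.085), with DESeq2 (0.13), or without control library 1 (-0.11, adjusted p = 0.61), library 1 of siRNA #1 (0.12) or library 1 of siRNA #2 (0.11). Footprints went the other way. They were at 5.92 and 6.72 CPM in the control, 6.95 and 7.80 CPM with siRNA #1 and 8.31 and 9.61 CPM with siRNA #2, all 4 above both controls. The mean change of 0.35 ± 0.14 did not pass (adjusted p = 0.089), and that of siRNA #2 alone did (0.49 ± 0.16, adjusted p = 0.034). The TE change was 0.56 ± 0.16 (adjusted p = 0.12), with 0.55 for siRNA #1 and 0.57 for siRNA #2. It passed with no filter on low counts (adjusted p = 0.049) and without RNA-seq library 2 of siRNA #1 (0.65, adjusted p = 0.022). In Sel-TCP-seq CDK6 had 2 to 29 counts a library, from 2.91 to 18.9 CPM, and was not tested.

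MYC (ENST00000621592.7) did not pass the test in RNA-seq of the MCTS1 KO. Its mRNA was at 21.2 and 19.8 CPM in wild type, 21.9 and 21.6 CPM in clone #1 and 20.7 and 19.6 CPM in clone #2, a change of 0.03 ± 0.04 (adjusted p = 0.67, edgeR). Both clone #1 libraries lay above wild type (0.09, adjusted p = 0.11), clone #2 did not, and the clones differed by 0.12 ± 0.05 (adjusted p = 0.028). Footprints were at 23.9 and 25.2 CPM in wild type, 29.9 and 30.9 CPM in clone #1 and 25.5 and 29.0 CPM in clone #2, with all KO libraries above both wild type libraries. The change of 0.22 ± 0.08 did not pass on average (adjusted p = 0.089) and passed in clone #1 (0.30, adjusted p = 0.021). Without wild type Ribo-seq library 2 the mean change was 0.27 (adjusted p = 0.019). The TE change was 0.18 ± 0.08 (adjusted p = 0.43). With DENR siRNA mRNA changed by 0.09 ± 0.07 (adjusted p = 0.36) and footprints by -0.02 ± 0.07 (adjusted p = 0.91).

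TCP-seq of MYC was lower in the MCTS1 KO. It was at 32.6 and 29.0 CPM in wild type libraries 3 and 4, 21.4 and 23.2 CPM in clone #1 and 15.4 and 16.4 CPM in clone #2. The change was -0.73 ± 0.19 (adjusted p = 0.0027, edgeR), with -0.49 in clone #1 (adjusted p = 0.21) and -0.97 in clone #2 (adjusted p = 0.00017). It was not called without wild type library 3 (-0.61, adjusted p = 0.16), against wild type libraries 1 and 2 (-0.34, adjusted p = 0.32) or with DESeq2 (adjusted p = 0.053). In the eIF2D KO, clone #1 had 10.6 and 13.1 CPM and clone #2 had 27.2 and 18.9 CPM, against 20.6 and 27.8 CPM in wild type libraries 1 and 2. Clone #1 lay below its wild type pair (-0.97 ± 0.23, adjusted p = 0.0068), clone #2 did not (0.07, adjusted p = 0.91), and they differed by -1.04 ± 0.21 (adjusted p = 0.00019). The mean change of -0.45 ± 0.19 did not pass (adjusted p = 0.27) and was -0.84 against wild type libraries 3 and 4 (adjusted p = 0.00031). The MCTS1 KO change minus the eIF2D KO change was -0.28 ± 0.26 (adjusted p = 0.63).

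In Sel-TCP-seq, MYC was at 24.1 and 34.3 CPM with eIF2D-V5, 12.6 and 13.1 CPM with MCTS1-V5 and 17.1 and 21.8 CPM with DENR-V5. Both eIF2D-V5 libraries lay above the 4 others. The log2 difference of 0.92 ± 0.35 did not pass (adjusted p = 0.069, edgeR). It passed with library totals in place of TMM factors (1.27, adjusted p = 0.026) and with the replicate block (adjusted p = 0.025). The 6 libraries held 4 to 100 counts of MYC each.

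**Figure D4:**
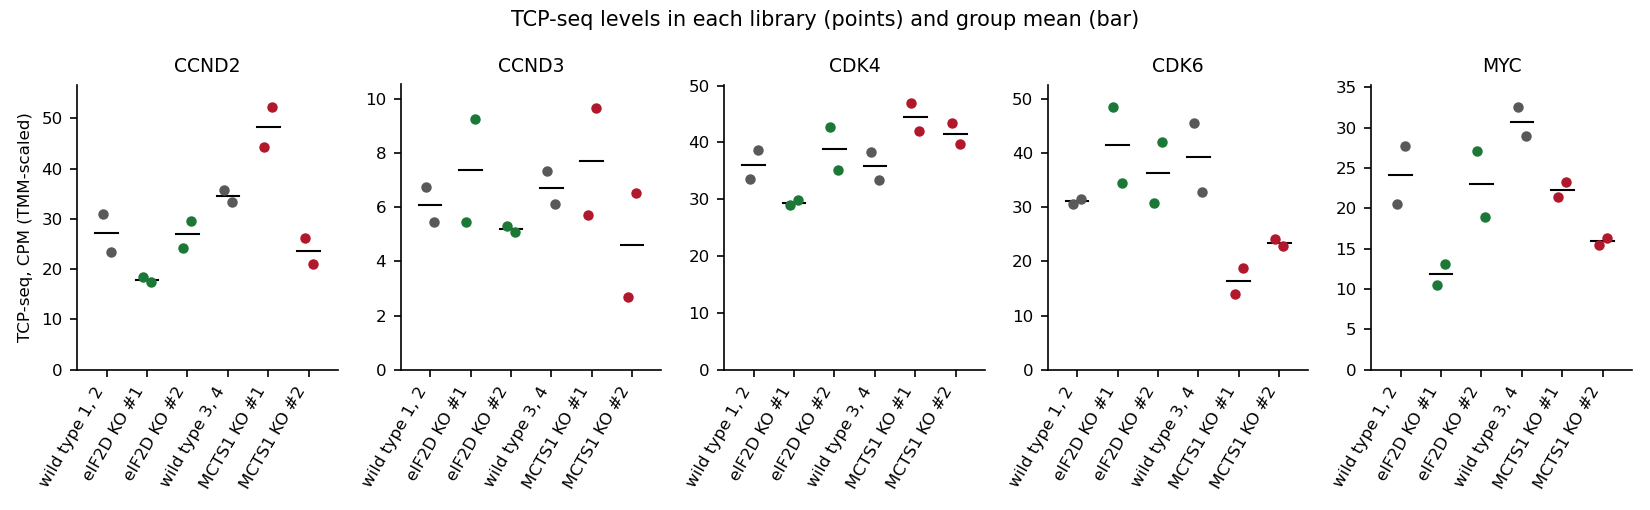
TCP-seq level in CPM (y axis, linear, from 0) of CCND2, CCND3, CDK4, CDK6 and MYC in each of 12 libraries (points) with the group mean (bar), by group (x axis), with wild type libraries 1 and 2 apart from 3 and 4. All 4 MCTS1 KO libraries lie below all 4 wild type libraries for CDK6. For CCND2 the MCTS1 KO clones lie on either side of wild type libraries 3 and 4, and clone #2 overlaps libraries 1 and 2. For MYC eIF2D KO clone #1 is the lowest group.

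Clones and siRNAs often differed from each other. In RNA-seq, 5 of 6 members differed between the MCTS1 KO clones, against 45.8% of transcripts, and 3 of 6 between the DENR siRNAs, against 24.9%. In Ribo-seq the counts were 2 of 6 for the clones (18.6% of transcripts) and 1 of 6 for the siRNAs (11.1%), CCND2 in the latter. TE differed between the siRNAs for 0 of 6 (1.01%). In TCP-seq the eIF2D KO clones differed for 3 of 5 members, CCND2, CDK4 and MYC, against 8.97% of transcripts. For CDK4 that difference was -0.47 ± 0.16 (adjusted p = 0.042, edgeR), with 28.9 and 29.8 CPM in clone #1 and 42.7 and 35.1 CPM in clone #2.

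Over the 17 group means of RNA-seq, Ribo-seq and TCP-seq, centred within each assay, CDK6 was the member whose pattern was most like that of CCND1 (Pearson's r = 0.79). MYC had r = 0.18, CCND3 0.16, CCND2 -0.04 and CDK4 -0.49. Among 22535 transcripts with at least 5 CPM in each assay, ENST00000506579.5 (r = 0.89) and ENST00000307633.7 (r = 0.89) had the highest r with CCND1, and none exceeded 0.9. CCND1 itself did not reach 5 CPM in each assay. The r values describe points that share libraries and depth, and CCND1's TCP-seq values, on which it was picked, are among them.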

How the data were processed

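The authors deposited one table of whole-number counts per transcript, raw and not normalized, for 42 of the 52 labelled samples; the 10 others, in 5 groups, were not analysed here. The tools named, per the submitters' processing notes, are STAR, cutadapt, Subread and featureCounts, and the builds GRCh38.p13 and hg38. The sources used here give neither versions nor how reads shared by several transcripts were counted. The members and gene lists were chosen with earlier results of these data known. Symbols of the members came with the choice of transcripts.

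Counts were tested over the whole table with edgeR 4.0.16 (R 4.3.3), using its robust quasi-likelihood F test, TMM factors within each assay and filterByExpr at a minimum count of 10; p-values were adjusted by Benjamini-Hochberg and called under 0.05, and members were read from these fits. Clones and siRNAs were separate coefficients; p-values leave out the spread between them. An SE was computed as the absolute log2 change divided by the square root of F. TE was the interaction of group and assay over 12 libraries. The 12 TCP-seq libraries shared one fit. All 6 members are named in every comparison. The transcripts most like CCND1 are the 2 of highest r on log2(CPM + 0.5). For r, its cut-off of 5 CPM and the measure of shared reads, CPM was on library totals without TMM factors. The wild type TCP-seq mean used for r was over all 4 libraries. The tests were tried on simulated counts. All 21 replicate pairs differed by at least 1.20 times counting noise, so none was taken for a copy. Alternatives were library totals, no filter, DESeq2 1.42.0, a replicate block, other wild type libraries and each library left out.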

Additional observations from a re-analysis of the deposited data

Results flagged for a closer look

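CDK6 in wild type TCP-seq had 1 library far from the rest: library 3, at 45.6 CPM, left a gap to the next library of 0.849 of the range of all 4, above the 95% critical value of 0.829. The other 5 members had no such library among these 4, and chance gives such a gap in about 1 of 20 groups, with 6 tested.

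Of 51 differences tested for these transcripts, between clones, between siRNAs or between the changes of both KOs, 17 passed the threshold (edgeR's quasi-likelihood test). Over all transcripts the share that passed depended on the contrast. It ran from 1.01% (TE, DENR siRNAs) to 45.8% (RNA-seq, MCTS1 KO clones), so the pooled count has no single share to be set against. The values below are log2 differences of #1 minus #2 unless said otherwise. In MCTS1 KO RNA-seq the clones differed for CCND1 (-0.563), CCND2 (0.184), CDK4 (-0.252), CDK6 (-1.05) and MYC (0.122). In MCTS1 KO Ribo-seq they differed for CCND2 (0.768) and CDK6 (-0.657), in TE for CCND2 (0.577) and in TCP-seq for CCND2 (1.02). The DENR siRNAs differed in RNA-seq for CCND1 (-0.607), CCND2 (-0.340) and CDK6 (-0.258), and in Ribo-seq for CCND2 (-0.278). The eIF2D KO clones differed in TCP-seq for CCND2 (-0.578), CDK4 (-0.470) and MYC (-1.04). The MCTS1 KO change and the eIF2D KO change differed in TCP-seq for CDK6 (-1.33, MCTS1 KO minus eIF2D KO). MCTS1 KO clone #1 was also the deepest sequenced, at 301214608 counts in its largest RNA-seq library and 193940882 in its largest Ribo-seq library, and the part of depth in the clone differences was not tested.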

How the results depend on the processing

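The CCND1 falls in RNA-seq and Ribo-seq, of both the MCTS1 KO and DENR siRNA, and the CCND2 rises in the MCTS1 KO were called under every alternative that gave an adjusted p. No called change reversed. The number of members called moved by over 1.5 times as follows, with the share of all transcripts called in brackets. In DENR RNA-seq it fell from 3 (23.1%) to 1 with library totals (22.9%) and with DESeq2 (15.6%), and it varied over left-out libraries. In MCTS1 KO Ribo-seq it fell from 2 (6.11%) to 1 with DESeq2 (3.66%), which gave CCND1 no adjusted p. In DENR TE it rose from 0 (0.377%) to 1 with no filter (0.369%). It varied over left-out libraries there and in MCTS1 KO TE. In eIF2D KO TCP-seq it rose from 0 (1.63%) to 2 with all 4 wild type libraries pooled (4.38%). It was also 2 with the other wild type pair (10.6%). In MCTS1 KO TCP-seq it fell from 2 (13.8%) to 1 with the other wild type pair (6.73%) and with DESeq2 (4.31%). It also varied over left-out libraries. For the difference between the KOs it rose from 1 (3.48%) to 2 with all 4 wild type libraries (8.94%). The member added was CCND2 (adjusted p = 0.0039, edgeR). In Sel-TCP-seq it rose from 0 (22.1%) to 1 with library totals (MYC, 23.3%), no filter (CCND1, 3.29%) and the replicate block (MYC, 37.1%). With no filter all 6 members were tested, against 3 with it. In the labels, replicates of different groups are linked by number alone. The correlation of same-numbered deviations ran from -0.24 to 0.42 over 18 pairs of groups. It was highest between DENR siRNA #1 and #2 in RNA-seq, so a link in some groups is not excluded. Beside MYC in Sel-TCP-seq, the replicate block ended the call of CDK4 in MCTS1 KO RNA-seq (adjusted p = 0.059) and changed no other member's call. No paired analysis was possible for MCTS1 KO TCP-seq, because these libraries share no number with wild type libraries 3 and 4. The cause of these changes was not tested. Over all transcripts, DESeq2 called 14.6% in MCTS1 KO RNA-seq, 4.31% in MCTS1 KO TCP-seq and 0.049% in eIF2D KO TCP-seq. CPM on library totals was 0.921 to 1.10 times the TMM-scaled value. Depth limits CCND1 in TCP-seq of the MCTS1 KO and all members in Sel-TCP-seq.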
